A study of Homo sapiens with 4 samples.

Results

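Of 2588 mature miRNAs listed in each library, 9 are markers of blood cells or of endothelium, and their levels were followed in exosomes, the small vesicles that cells shed into their medium, of 2 colon cancer cell lines of human origin. They were taken by name: the erythroid hsa-miR-451a, hsa-miR-486-5p and hsa-miR-144-3p, the leukocyte hsa-miR-142-5p, hsa-miR-142-3p, hsa-miR-150-5p and hsa-miR-223-3p, and the endothelial hsa-miR-126-3p and hsa-miR-126-5p. All 9 were found in every table. The lines are labelled HCT15 and HCT29. Parental cells of each were grown in complete RPMI and gave their vesicles into a form of that medium depleted of exosomes. Spheres, floating colonies used to enrich for stem-like cells, were grown from each line for 3 weeks in DMEM/F12 with N2 supplement, 10 ng/ml bFGF and 10 ng/ml EGF. No genotype or treatment other than the medium is given. The labels do not say whether the complete medium held serum, and the growth text of both HCT29 samples names HCT15, so which cells gave the HCT29 libraries is not settled. There is 1 library for each line and culture, 4 in all, so a ratio between 2 libraries has no replicate error, and its interval covers counting error only.

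miRNAs are short RNAs that guide Argonaute proteins to messenger RNAs, chiefly through bases 2 to 8, the seed. Each miRNA hairpin can give a strand from its 5′ side (5p) and one from its 3′ side (3p), and often 1 strand is kept and the other is lost. Blood cells carry very high levels of a few miRNAs. miR-451a and miR-144 come from 1 erythroid transcript driven by GATA1, and miR-451a is cut by Argonaute 2 rather than Dicer. miR-486-5p is also abundant in red cells and in muscle. miR-142 is expressed across the blood lineages, miR-150 in mature lymphocytes and miR-223 in granulocytes, monocytes and platelets. miR-126, encoded inside EGFL7, maintains vessel integrity and is also found in platelets and blood progenitors. Serum holds vesicles and proteins that carry miRNAs of red cells and platelets, and none of these markers is regarded as typical of colon epithelium.

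Mature strands of miR-142, miR-126, miR-144 and miR-223 are shown. The sequence set used held no entry for miR-451a and miR-150-5p, and miR-486-5p was left out. Sequences are from RefSeq (GRCh38.p14), written 5′ to 3′ with the seed in capitals, and 6 of the 9 members are shown.
hsa-miR-142-5p: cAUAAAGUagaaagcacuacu
hsa-miR-142-3p: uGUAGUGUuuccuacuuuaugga
hsa-miR-126-5p: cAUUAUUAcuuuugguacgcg
hsa-miR-126-3p: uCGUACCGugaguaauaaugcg
hsa-miR-144-3p: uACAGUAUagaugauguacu
hsa-miR-223-3p: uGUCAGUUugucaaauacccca
No 2 of these 6 seeds were alike. Among the RefSeq mature miRNAs in the sequence set used, which lacks some miRNAs, 1 other, hsa-miR-5590-3p, had the full seed of a member shown. The seed was that of hsa-miR-142-5p, and hsa-miR-5590-3p had 0 reads in all 4 libraries.

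The whole hairpins show where the counted strands sit, with the 5p strand and then the 3p strand in capitals. The MIR142 hairpin lies on the minus strand at chr17:58331232-58331318 (GRCh38), in an exon of the noncoding gene AC004687.1. The MIR126 hairpin lies on the plus strand at chr9:136670602-136670686, in an intron of EGFL7.
MIR142: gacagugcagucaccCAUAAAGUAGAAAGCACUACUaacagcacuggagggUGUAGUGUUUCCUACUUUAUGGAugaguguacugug
MIR126: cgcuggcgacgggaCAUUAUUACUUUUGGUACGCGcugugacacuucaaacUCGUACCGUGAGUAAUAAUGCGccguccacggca
In MIR142 the strands span bases 16 to 36 and 52 to 74 of 87, and in MIR126 bases 15 to 35 and 52 to 73 of 85.

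Levels are in RPM (reads per 1000000 reads of the library), and since a mature miRNA is read from end to end, RPM does not depend on length. Every nonzero value converted to whole reads within 0.1 read. The implied library totals were 110666 to 146648 reads in the parental and 461226 to 530920 in the sphere libraries, so 1 read was worth 6.82 and 9.04 RPM in HCT15 and HCT29 parental and 2.17 and 1.88 RPM in their spheres. Where 4 values are listed without names below, they run from parental to sphere exosomes of HCT15 and then of HCT29. A count of 0 is placed at a floor of 3 reads, 20.5 and 27.1 RPM in the parental and 6.504 and 5.65 RPM in the sphere libraries. The 9 miRNAs usual in intestinal epithelium (miR-192-5p, miR-194-5p, miR-215-5p, miR-375 and 5 of the miR-200 family) were detected in all 4 libraries, with summed levels of 15043, 22915, 98946 and 132410 RPM. Their sum was higher in HCT29 by 6.58 times between the parental libraries and 5.78 times between the sphere libraries. miR-192-5p alone had 68268.5 and 75265.6 RPM in HCT29 parental and sphere. In HCT29, 7 of the 9 were at least 2-fold higher and 2 lower between the parental libraries. Between the sphere libraries 6 were higher, 2 lower and 1 within 2-fold.

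Together the 9 blood and endothelial markers were a small part of each library, and a larger part of parental than of sphere exosomes in both lines. In HCT15 they held 727 reads or 0.637% of all listed reads in parental exosomes (95% Clopper-Pearson interval 0.591 to 0.685) and 143 reads or 0.0345% in sphere exosomes (0.0291 to 0.0406). In HCT29 they held 276 reads or 0.286% (0.253 to 0.321) and 430 reads or 0.0933% (0.0847 to 0.103). The summed level was 15.99-fold lower in HCT15 spheres (13.3 to 19.3) and 3.08-fold lower in HCT29 spheres (2.64 to 3.59). RPM is a share of a library. Fewer vesicles that carry a miRNA, fewer copies per vesicle and more of other RNAs therefore cannot be told apart in such libraries. The sum was led by miR-486-5p in both parental libraries and by miR-126-5p in both sphere libraries.

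**Figure D1:**
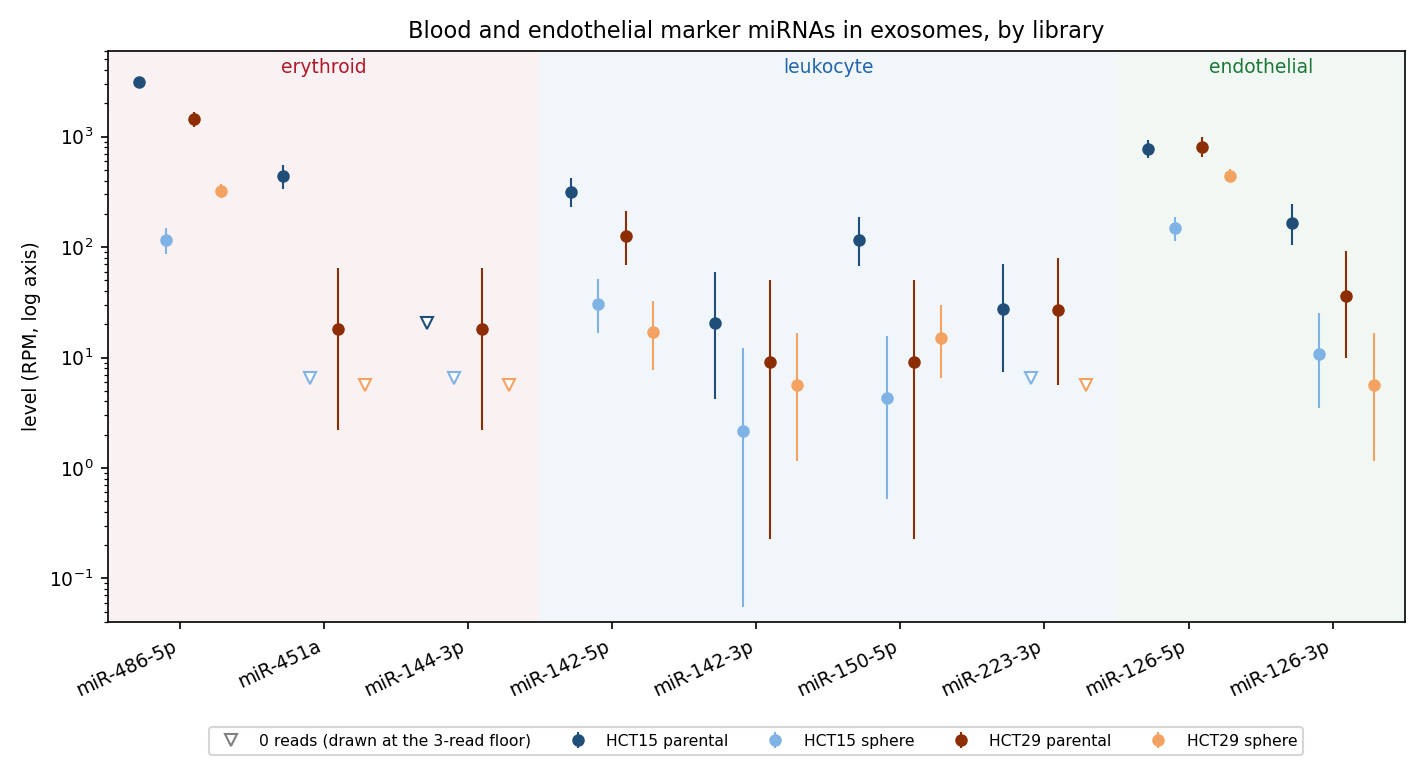
Level of each of the 9 miRNAs in RPM (log axis) in the 4 libraries, with points for the deposited values, bars for exact 95% Poisson intervals on the reads, and open triangles for counts of 0 drawn at the 3-read floor. miR-486-5p is highest in HCT15 parental, at 3109 RPM, and the sphere libraries have no read of miR-451a, miR-144-3p or miR-223-3p.

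Among the erythroid members, miR-486-5p carried nearly all of the reads. It had 3109 RPM (456 reads) in parental and 115 RPM (53 reads) in sphere exosomes of HCT15, and 1437 RPM (159 reads) in parental and 322 RPM (171 reads) in sphere exosomes of HCT29. Both parental libraries were thus above both sphere libraries, and in HCT15 parental it was the miRNA of rank 37 among all those listed, against rank 149 in HCT15 sphere. It was 27.1-fold lower in HCT15 spheres (20.3 to 36.7) and 4.46-fold lower in HCT29 spheres (3.57 to 5.57). The difference between the lines was itself larger than counting error, since the HCT29 ratio was 6.07 times the HCT15 ratio (4.24 to 8.67). In HCT29 the log2 ratio of -2.15 became -0.99 under TMM scaling, just within 2-fold, and -1.27 under DESeq2 size factors. miR-486-5p can come from a pair of hairpins, MIR486-1 and MIR486-2, which share 64 bases on opposite strands of chromosome 8 (GRCh38, 41660441 to 41660508 for the first) within an intron of ANK1, and its reads cannot be divided between them. Its partner strand miR-486-3p had 0 reads in all 4 libraries.

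miR-451a was found almost entirely in 1 library. It had 436 RPM (64 reads) in parental and 0 reads in sphere exosomes of HCT15, and 18.1 RPM (2 reads) in parental and 0 reads in sphere exosomes of HCT29. HCT15 sphere would have shown 201 reads at the share of HCT15 parental, so the count of 0 places it at least 67.1-fold lower, counted against the 3-read floor of that library. The exact interval on 64 and 0 reads allows a difference as small as 53.0-fold. For HCT29, with 2 parental reads, no ratio can be given. Between the parental libraries miR-451a was 24.1-fold lower in HCT29 (6.42 to 204). It did not follow miR-486-5p from library to library: there were 0.140 reads of miR-451a for each read of miR-486-5p in HCT15 parental (0.106 to 0.183) and 0.0126 in HCT29 parental (0.00151 to 0.0462). At the HCT15 parental proportion, the miR-486-5p reads of the other libraries would have come with 7.44 (HCT15 sphere), 22.3 (HCT29 parental) and 24.0 (HCT29 sphere) reads of miR-451a, where 0, 2 and 0 were seen.

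hsa-miR-144-3p, which lies in the same transcript as miR-451a, was near the limit of detection. It had 0, 0, 2 and 0 reads, and its partner strand miR-144-5p had 4 reads in HCT15 parental and 0 in the others. The hairpins MIR451A and MIR144 are 92 bases apart on the minus strand of chromosome 17 (GRCh38, 28861369 to 28861440 and 28861533 to 28861618), both in an exon of the long noncoding gene AC024267.1. So HCT15 parental held 64 reads of miR-451a beside 4 from either strand of MIR144. The remaining hairpin products of this locus, miR-451b and both strands of miR-4732, had 0 reads in all 4 libraries.

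The leukocyte members were scarcer, and miR-142-5p led them in all 4 libraries. It had 314 RPM (46 reads) in parental and 30.4 RPM (14 reads) in sphere exosomes of HCT15, and 127 RPM (14 reads) in parental and 16.95 RPM (9 reads) in sphere exosomes of HCT29. The parental library of each line was above the sphere library, by 10.3-fold in HCT15 (5.58 to 20.4) and 7.46-fold in HCT29 (3.01 to 19.5). Both ratios stayed beyond 2-fold under TMM scaling, with log2 ratios of -2.72 and -1.70. The lines could not be told apart in this ratio at this depth, since that of HCT29 was 1.38 times that of HCT15 (0.495 to 3.88). hsa-miR-142-3p had 3, 1, 1 and 3 reads, so no ratio is given.

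hsa-miR-150-5p, the lymphocyte member, had 116 RPM (17 reads) in parental and 4.34 RPM (2 reads) in sphere exosomes of HCT15, and 9.04 RPM (1 read) in parental and 15.1 RPM (8 reads) in sphere exosomes of HCT29. Only the first of these libraries held 10 or more reads. It was 26.7-fold lower in HCT15 spheres (6.35 to 239), while in HCT29 the sphere level was 1.67 times the parental level with an interval that reached from 0.224 to 74.0. Its hairpin lies on chromosome 19 (GRCh38, 49500785 to 49500868, minus strand) outside any other annotated gene. hsa-miR-223-3p, the myeloid member, had 4 reads (27.3 RPM) in HCT15 parental and 3 reads (27.1 RPM) in HCT29 parental, and 0 in both sphere libraries although these were 3.15 and 4.80 times as deep. It was at least 4.19-fold lower in HCT15 spheres, counted against the 3-read floor of the sphere library, while the exact interval on 4 and 0 reads allows a difference as small as 2.08-fold. No ratio is given for HCT29, whose parental level lay at the floor. Its hairpin lies on chromosome X (66018870 to 66018979, plus strand) in an exon of the noncoding gene AL034397.3. The partner strands miR-150-3p and miR-223-5p had 0 reads in all 4 libraries.

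Among the members with at least 10 reads in a compared library, the endothelial miR-126-5p differed least between the cultures of each line. It had 771 RPM (113 reads) in parental and 147 RPM (68 reads) in sphere exosomes of HCT15, and 813 RPM (90 reads) in parental and 445 RPM (236 reads) in sphere exosomes of HCT29. The parental libraries were alike within counting error, with HCT29 at 1.06 times HCT15 (0.791 to 1.40), whereas HCT29 sphere was 3.02 times HCT15 sphere (2.29 to 4.01). It was 5.23-fold lower in HCT15 spheres (3.84 to 7.17). In HCT29 spheres it was 1.83-fold lower (1.42 to 2.34), within 2-fold, and this direction turned under another scaling, with the log2 ratio of -0.87 becoming 0.30 under TMM and 0.02 under DESeq2 size factors. The ratio of HCT29 was 2.86 times that of HCT15 (1.94 to 4.205). hsa-miR-126-3p, the strand that represses SPRED1 in endothelial cells, had 24, 5, 4 and 3 reads. It was 15.1-fold lower in HCT15 spheres (5.65 to 50.7), and on 4 and 3 reads it was 6.40-fold lower in HCT29 spheres (1.08 to 43.7).

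**Figure D2:**
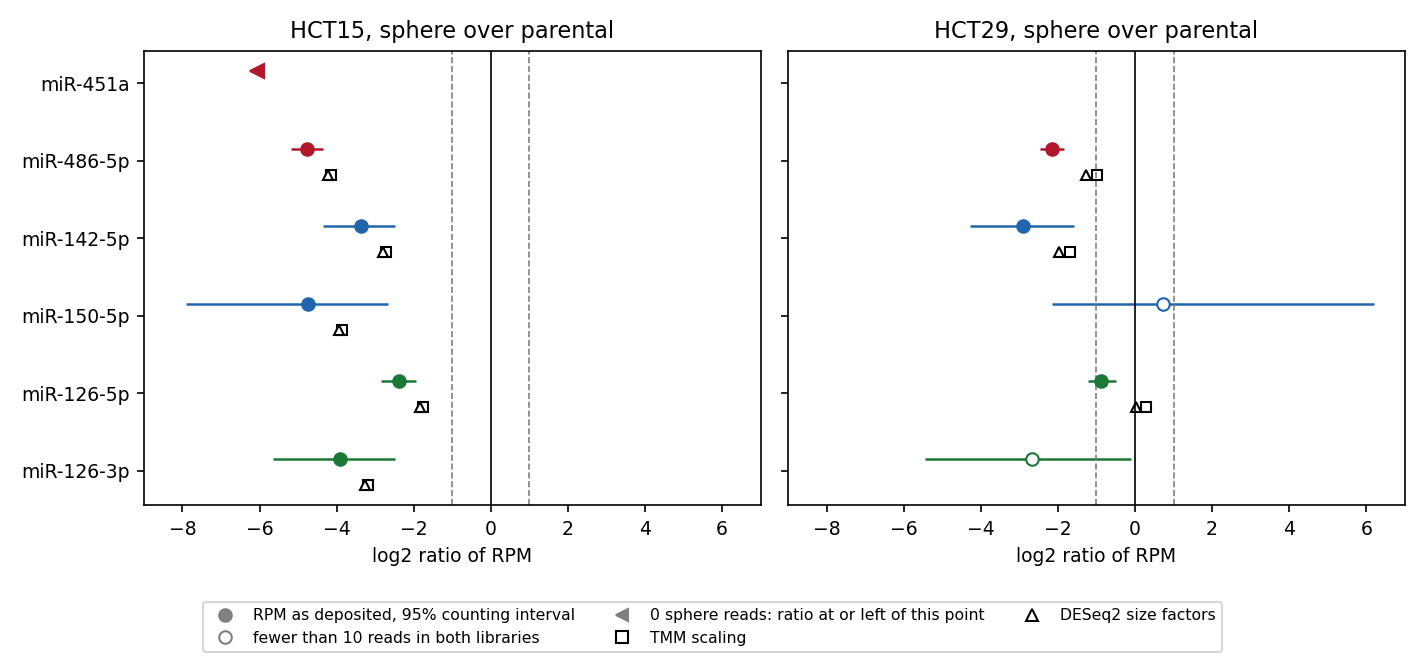
Log2 ratio of sphere to parental RPM for 6 members in HCT15 (left) and HCT29 (right). Circles are deposited RPM with exact 95% counting intervals (open where neither library had 10 reads), the triangle pointing left is a bound from 0 sphere reads, squares and upright triangles are TMM and DESeq2 scaling of RPM + 1, and dashed lines mark 2-fold. Every ratio of HCT15 lies left of the 2-fold line, while in HCT29 miR-126-5p moves from -0.87 to 0.30 under TMM; miR-451a has too few HCT29 reads to be drawn.

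Ratios between members of 1 library do not depend on how the library is scaled, and they too differed between the cultures. For each read of miR-126-5p there were 4.04 reads of miR-486-5p in HCT15 parental (3.28 to 5.00) and 0.779 in HCT15 sphere (0.534 to 1.13). In HCT29 there were 1.77 in the parental library (1.36 to 2.31) and 0.725 in the sphere library (0.592 to 0.886). The erythroid marker was therefore lower in sphere exosomes relative to the endothelial one in both lines, by intervals that do not overlap. miR-142-5p likewise went from 0.156 to 0.0381 reads for each miR-126-5p read in HCT29 (0.0818 to 0.275 and 0.0172 to 0.0736). The same pair gave 0.407 and 0.206 in HCT15, with intervals that overlap (0.282 to 0.578 and 0.107 to 0.370). For each read of miR-142-5p, HCT15 had 9.91 and 3.79 reads of miR-486-5p in parental and sphere exosomes (7.31 to 13.7 and 2.07 to 7.39) and HCT29 had 11.4 and 19.0 (6.57 to 21.2 and 9.78 to 42.3), and in both lines these intervals overlap.

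The order of the members followed from these values. In HCT15 parental it ran miR-486-5p, miR-126-5p, miR-451a, miR-142-5p, miR-126-3p, miR-150-5p, miR-223-3p and miR-142-3p, with miR-144-3p at 0 reads. Neighbours that did not differ beyond counting error were miR-451a and miR-142-5p, miR-126-3p and miR-150-5p, and the last 3. In HCT29 parental miR-486-5p, miR-126-5p, miR-142-5p and miR-126-3p were the first 4, each apart from the next, and all from miR-126-3p down were within counting error of their neighbours. In both sphere libraries miR-126-5p came first and miR-486-5p next, which differed in HCT29 and not in HCT15, and miR-142-5p came after them.

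By class, the erythroid sum was 30.9-fold lower in HCT15 spheres (23.2 to 41.8), the leukocyte sum 13.0-fold (7.54 to 23.5) and the endothelial sum 5.90-fold (4.41 to 7.95). In HCT29 spheres the erythroid and leukocyte sums were lower by 4.57-fold (3.67 to 5.70) and 4.56-fold (2.30 to 8.996), and the endothelial sum by 1.89-fold (1.47 to 2.41), the last of which turned under TMM scaling, with a log2 ratio of 0.25. miR-486-5p and miR-126-5p held most reads of the erythroid and endothelial sums in all 4 libraries, while miR-142-5p held 9 of the 20 leukocyte reads of HCT29 sphere. Without miR-142-5p the leukocyte sum was 25.2-fold lower in HCT15 spheres (7.64 to 131, on 24 and 3 reads) and 2.18-fold lower in HCT29 spheres, with an interval that includes 1 (0.594 to 6.81, on 5 and 11 reads). Without miR-486-5p the erythroid members had 64 parental and 0 sphere reads in HCT15, and 4 and 0 in HCT29.

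Set against all miRNAs, the measured markers of HCT15 lay toward the low end of the sphere over parental ratios, while in HCT29 miR-126-5p did not. A miRNA was taken as measured when a compared library had at least 10 reads, and as called when the log2 ratio of RPM + 1 reached 2-fold. In HCT15, 6 of the 9 members were measured and all 6 were at least 2-fold lower, where 28.2% of the 305 measured miRNAs were. Of these 6, miR-451a, miR-150-5p and miR-126-3p reached 10 reads through the parental library alone and so had to be lower, while miR-126-5p, miR-142-5p and miR-486-5p had 10 reads in both. From the lowest ratio up, miR-451a was first of the 305, miR-486-5p 7th, miR-150-5p 8th, miR-126-3p 11th, miR-142-5p 14th and miR-126-5p 28th. The place of miR-451a depends on the 1 RPM added to its 0 sphere reads, since against the floor it is only known to be at least 67.1-fold lower. miR-9-5p, on 1 sphere read, was 601-fold lower, at a log2 ratio of -8.68 beside -8.77 for miR-451a. The median log2 ratio over all measured miRNAs was -0.12. TMM scaling moved it by 0.61 and left 6 members lower, where 51 of the 305 then were.

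In HCT29, 3 of the 9 members were measured and 2 of them, miR-486-5p and miR-142-5p, were at least 2-fold lower, where 36.2% of the 224 measured miRNAs were. miR-142-5p reached 10 reads through the parental library alone, so 1 of the 2 members with 10 reads in both was lower. miR-142-5p was 21st and miR-486-5p 37th from the lowest ratio, and miR-126-5p was 88th, near the middle. The median log2 ratio over all measured miRNAs was -0.57. TMM scaling moved it by 1.15 and left 1 of the 3 called lower, miR-142-5p, where 36 of the 224 then were. The members with 10 reads in both libraries, miR-486-5p (-0.99) and miR-126-5p (0.30), were then not called. Of 188 miRNAs measured in both lines, 4 were at least 4-fold lower in the spheres of each, and these were miR-486-5p, miR-142-5p, miR-200a-5p and miR-200b-5p. For miR-142-5p the filter alone fixed this in HCT29, since it was measured there only through the parental library.

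**Figure D3:**
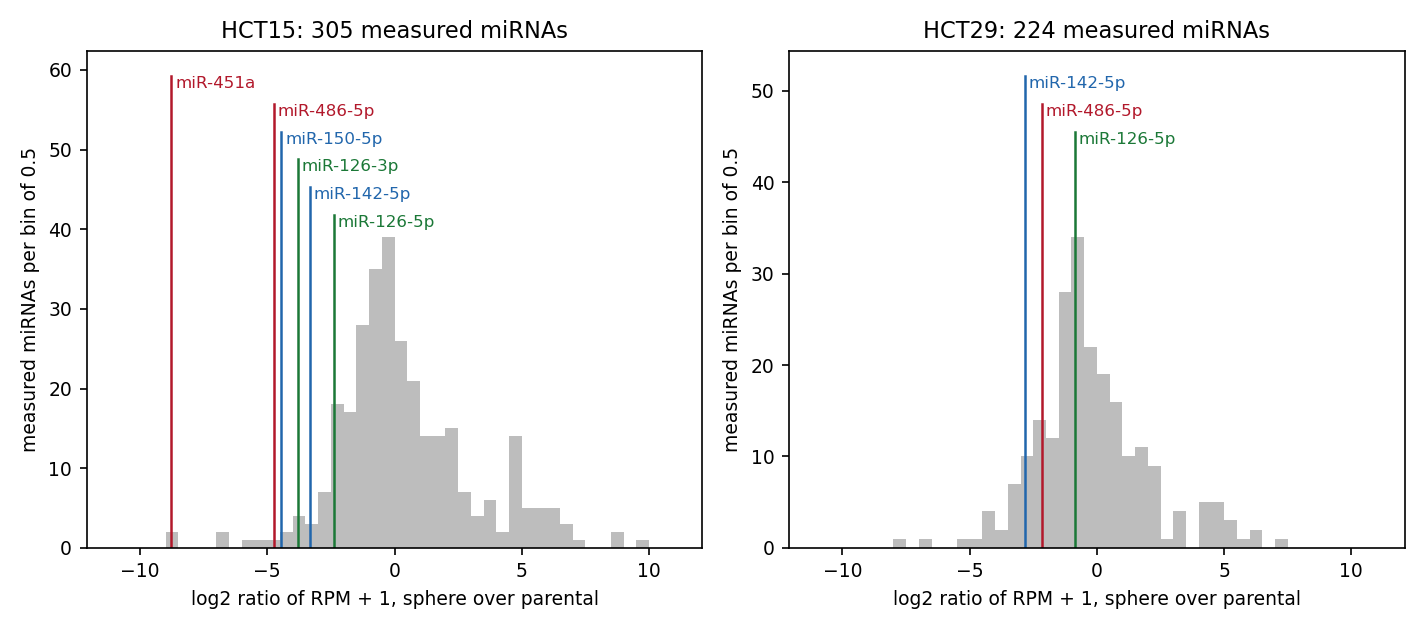
Histograms of sphere to parental log2 ratios of RPM + 1 for all measured miRNAs of HCT15 (left, 305) and HCT29 (right, 224), in bins of 0.5 on the horizontal axis with the number of miRNAs on the vertical axis. Coloured lines mark the members (red erythroid, blue leukocyte, green endothelial), from -8.77 for miR-451a to -2.38 for miR-126-5p in HCT15 and from -2.83 for miR-142-5p to -0.87 for miR-126-5p in HCT29. The place of the miR-451a line is set by the 1 RPM added to a count of 0 in the sphere library.

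With the lines as the only replicates of the culture, limma over all 4 libraries, with a term for the line, tested 222 miRNAs that had at least 10 reads in at least 2 libraries, and called 0 (0% of those tested) at an adjusted p under 0.05. The fit has 1 residual degree of freedom, and 12 of the 222 had an unadjusted p under 0.05. It held 3 members. miR-486-5p had a mean log2 ratio of -3.45 (SE 1.31), lower in both lines, with a Benjamini-Hochberg adjusted p of 0.882 from limma. miR-142-5p had -3.08 (SE 1.31), lower in both lines, with the same adjusted p of 0.882, and miR-126-5p had -1.62 (SE 1.30) with an adjusted p of 0.968. The edgeR quasi-likelihood test called 0 miRNAs, with 3 at an unadjusted p under 0.05, and DESeq2 called 1, with 10, which is not a member. The lower levels of miR-486-5p and miR-142-5p in both spheres were thus not called by any of these tests. The limma SE follows a variance trend over all 222 tested miRNAs, so it is not a member's own spread between the lines. miR-142-5p, with log2 ratios of -3.33 in HCT15 and -2.83 in HCT29, had nearly the SE of miR-486-5p, with -4.75 and -2.15.

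The lines were also compared within each culture. Between the parental libraries 5 of 6 measured members were at least 2-fold lower in HCT29, where 46.4% of 224 measured miRNAs were, so the count stands beside a high background. Of these, miR-451a, miR-150-5p and miR-126-3p reached 10 reads through HCT15 parental alone, so the filter favoured a lower level in HCT29. Of the 3 members with 10 reads in both libraries, 2 were lower. Besides miR-451a, the members lower in HCT29 were miR-150-5p (12.8-fold, 2.01 to 536, on 1 HCT29 read), miR-126-3p (4.53-fold, 1.56 to 18.0), miR-142-5p (2.48-fold, 1.34 to 4.88) and miR-486-5p (2.16-fold, 1.80 to 2.61). The log2 ratio of miR-486-5p, -1.11, came within 2-fold under TMM (-0.86), DESeq2 size factors (-0.78) and thinning to equal depth (-0.99), and under DESeq2 size factors miR-142-5p did too, at -0.97. Between the sphere libraries, HCT29 had 2 of 3 measured members higher by 2-fold or more, where 25.2% of 325 were, namely miR-486-5p (2.80-fold, 2.05 to 3.89) and miR-126-5p. The level of miR-486-5p was thus higher in HCT15 among parental exosomes and higher in HCT29 among sphere exosomes. Over both cultures limma called 28 of the 222 miRNAs (12.6%) between the lines, a count that ran from 5 to 31 in other fits of the same 222, and none of the 3 members tested was among them, with adjusted p from limma of 0.957 for miR-486-5p, 0.673 for miR-142-5p and 0.724 for miR-126-5p.

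Both hairpins with a pair of counted strands gave mostly 5p reads. For miR-142 the 5p strand made up 46 of 49 reads in HCT15 parental (93.9%, 83.1 to 98.7), 14 of 15 in each of HCT15 sphere and HCT29 parental, and 9 of 12 in HCT29 sphere (75.0%, 42.8 to 94.5). For miR-126 it made up 113 of 137 reads in HCT15 parental (82.5%, 75.1 to 88.4), 68 of 73 in HCT15 sphere (93.2%, 84.7 to 97.7), 90 of 94 in HCT29 parental (95.7%, 89.5 to 98.8) and 236 of 239 in HCT29 sphere (98.7%, 96.4 to 99.7). The miR-126 share was lowest in HCT15 parental, whose interval does not overlap those of both HCT29 libraries. A high 5p share was common: 55 of 123 hairpins with at least 10 reads in HCT15 parental had a share at least as high as that of miR-142, and 58 as high as that of miR-126. The median share of all such hairpins was 74.3%, 61.2%, 88.9% and 84.0% over the 4 libraries.

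**Figure D4:**
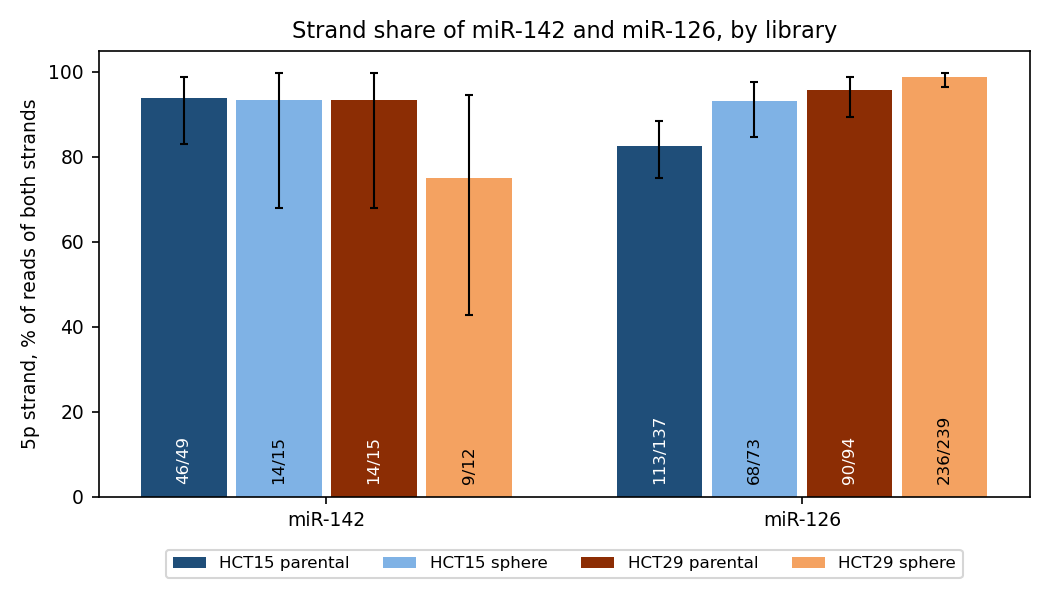
Share of the 5p strand, as a percentage of the reads of both strands (vertical axis from 0), for miR-142 and miR-126 in the 4 libraries, with exact 95% binomial intervals and the 5p and summed reads written in each bar. The miR-126 share runs from 82.5% in HCT15 parental to 98.7% in HCT29 sphere, and those of miR-142 rest on 12 to 49 reads.

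Other miRNAs of blood, serum and neighbouring tissues did not share one pattern with the members. Of 2 miRNAs listed as serum signs, the liver miR-122-5p had 1 read in HCT29 parental and 0 in the other libraries, while miR-1246 had 1725, 598, 560 and 82.9 RPM, lower in the spheres of both lines. The sum of these 2 was 2.88-fold lower in HCT15 spheres (2.42 to 3.43) and 6.87-fold lower in HCT29 spheres (4.60 to 10.3). Apart from the 1 read of miR-122-5p this sum is miR-1246 alone, so it does not describe serum signs as a set. The part of these 2 miRNAs in the levels of the 9 markers was not tested. Of 6 other blood miRNAs, 3 were measured in HCT15. miR-155-5p, of activated lymphocytes and macrophages, had 846, 629, 72.3 and 33.9 RPM in the same order, within 2-fold between the HCT15 cultures. In HCT29 spheres it was 2.13-fold lower on 8 and 18 reads, with an interval that includes 1 (0.802 to 5.15). miR-16-2-3p had 95.5, 73.7, 27.1 and 7.53 RPM, also within 2-fold in HCT15 and on fewer than 10 reads in HCT29. miR-146a-5p, induced by NF-kB, went the other way, with 184 and 16215.5 RPM in HCT15 and 45.2 and 132 RPM in HCT29. The lymphocyte miR-342-3p had 1, 1, 0 and 0 reads, and the remaining 2 of the list had 1 read in all.

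Markers of other tissues were as uneven. The 2 nerve miRNAs, miR-9-5p and miR-124-3p, had 209 reads in HCT15 parental, 1 in HCT15 sphere and 0 in both HCT29 libraries, so that HCT15 parental was high in these as it was in miR-451a. The 4 fibroblast and smooth muscle miRNAs had 1180, 4098, 1473 and 181 RPM, higher in HCT15 spheres (3.47-fold, 2.97 to 4.08) and lower in HCT29 spheres (8.15-fold, 6.29 to 10.6). The 3 muscle miRNAs had 0 reads in all 4 libraries, and the source of miR-486-5p was not tested. Of the 9 intestinal epithelium miRNAs, 4 were at least 2-fold higher and 2 lower in HCT15 spheres, and 2 higher and 3 lower in HCT29 spheres.

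The miRNAs with levels most like those of the members were sought by the distance between log2(RPM + 1) profiles over the 4 libraries, each centred on its own mean, among the 335 others that reached 10 reads somewhere. Nearest to miR-486-5p were miR-365a-5p (distance 1.46) and miR-339-5p (1.53), then miR-576-5p, miR-30c-5p and miR-361-3p. Nearest to miR-142-5p were miR-454-3p (1.39) and miR-30c-5p (1.503), then miR-378a-3p, miR-140-3p and miR-193b-3p. miR-126-5p had closer neighbours: miR-1304-3p (0.54), miR-339-5p (0.64), miR-30d-5p (0.64), miR-576-5p (0.70) and miR-361-3p (0.85). The nearest of them, miR-1304-3p, had 361, 91.1, 298 and 203 RPM. The summed level of all 9 members lay nearest to miR-339-5p (0.88), at 211, 28.2, 145 and 65.9 RPM in the same order, followed by miR-576-5p, miR-30c-5p, miR-361-3p and miR-1304-3p. None of these nearest miRNAs belongs to the blood, serum or tissue lists above, and with 4 libraries the distances are a description of these libraries.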

How the data were processed

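Small RNA libraries were made with TruSeq chemistry from RNA of 18 to 40 nucleotides, per the labels. The authors deposited RPM values for 2588 mature miRNAs, a unit stated per the file headers of HCT15. The HCT29 headers name only the culture, and RPM was inferred there: each library's values move in steps of 1 read and total under 1000000. The submitters' processing notes name hg19. The aligner is not given in the sources used here. Hairpin positions are from GENCODE 29 (GRCh38). Reads were recovered from the steps (100% of nonzero values whole within 0.1 read) and served for exact conditional (Clopper-Pearson) and Poisson 95% intervals, floors and alternatives. PCR copies are not independent molecules. Calls used log2 of RPM + 1, at least 10 reads and 2-fold. limma 3.58.1 (mean-variance trend) ran over 222 miRNAs with terms for line and culture, and edgeR 4.0.16 and DESeq2 1.42.0 ran on recovered reads as alternatives. The lines are not independent cultures of 1 line. The p-values rest only on spread among these libraries, and in limma that spread is taken from a trend over all tested miRNAs. The limma fit and the recovery of reads were tested on simulated data. The simulated libraries for limma had no difference between the lines, so that test does not cover the spread of these data. The members, lists and tests were chosen with earlier results of these data known. Named were all 9 members, the 5 nearest profiles for the most abundant member of each class and for the sum, and members of 7 context lists, up to 4 each apart from partner strands. miR-200a-5p and miR-200b-5p were named after their values were seen.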

Additional observations from a re-analysis of the deposited data

Results flagged for a closer look

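hsa-miR-150-5p was the 1 member whose direction was opposite in the lines: it was lower in HCT15 spheres and 1.67 times the parental level in HCT29 spheres. The HCT29 value rests on 1 parental and 8 sphere reads and its interval includes 1. The HCT29 ratio was 44.6 times the HCT15 ratio (3.50 to 567, counting error only, on 1 read at the least). The difference between the lines was not tested over replicates, since each line and culture has 1 library.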

How the results depend on the processing

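In HCT15 the 6 lower calls (beside 86 of 305 miRNAs) were 5 with at least 20 reads (64 of 225), where miR-150-5p was not measured. They were 8 with no filter (227 of 790) and 6 under the other 6 alternatives. Over all miRNAs those 6 gave from 51 of 305 (TMM) to 97 of 305 (over listed reads), and 83 of 233 after thinning. No member was called higher in HCT15 or HCT29 spheres under any, beside 98 of 305 and 52 of 224 in the main setting. In HCT29 the 2 lower calls (beside 81 of 224 miRNAs) became 1 under TMM factors (36 of 224). That was miR-142-5p, which reached 10 reads through the parental library alone. They became 1 with at least 20 reads (62 of 172) and 6 with no filter (236 of 532). Between the parental libraries the 5 lower calls (beside 104 of 224 miRNAs) became 3 under DESeq2 size factors (92 of 224). With no filter 1 member was called higher (156 of 573). Between the sphere libraries the 2 higher calls (beside 82 of 325 miRNAs) became 4 with no filter (172 of 802). The log2 ratio of miR-126-5p in HCT29 turned to 0.30 (TMM) and 0.018 (DESeq2 size factors), and that between the parental libraries to -0.087 over listed reads and -0.14 after thinning. The log2 ratio of the HCT15 erythroid sum, -4.95, became -4.34 (TMM), -4.42 (DESeq2) and -6.07 without miR-486-5p. The last is no measured ratio, since the count of 0 sphere reads was placed at the 3-read floor. That of the leukocyte sum, -3.69, became -4.65 without miR-142-5p. That of the endothelial sum, -2.56, became -1.95, -2.03 and, without miR-126-5p, -3.92. In HCT29 the erythroid sum, -2.19, became -1.02, -1.30 and -2.68, the last again with 0 sphere reads placed at the floor. The leukocyte sum of HCT29, -2.19, became -1.02 (TMM) and -1.12 without miR-142-5p, and the endothelial sum, -0.92, became 0.25, -0.026 and -2.68. The cause was not tested. The 28 miRNAs called between the lines became 7 with no replicate block, 5 at a pseudocount of 0.1, 31 at 5, 23 after TMM, 10 with edgeR, 16 with DESeq2 and 17 of 905 with no filter. limma, edgeR, DESeq2, other pseudocounts, no filter and no replicate block each called 0 of the tested members in either comparison, and without the sphere libraries the line ratio of miR-486-5p, 0.18 on the log2 scale, became -1.11, and without the parental libraries 1.48. Depth limits miR-144-3p, miR-142-3p and miR-223-3p, which had 4 reads or fewer in every library.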
